A study of Caenorhabditis elegans with 2 samples.

Results

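The histone genes of Caenorhabditis elegans were examined for binding of BED-2. Members were all genes named his- with a digit, htz-1, the hil- genes and hcp-3, and they numbered 82 of the 46890 genes annotated on the 6 chromosomes of assembly ce11. For each gene, the strongest peak in a ranked list was taken whose summit lay within 1000 bp of a transcript start. The names chose the genes, not the binding data. The set held 64 core histone genes, of which 17 encode H2A, 16 H2B, 15 H3 and 16 H4. All 64 lay within 5000 bp of another core gene, in 14 loci of 2 to 13 genes. The other 18 genes are called single here. They comprised 9 linker histone genes (hil-1 to hil-8 and his-24), 5 genes for H3.3 or H3.3-like proteins (his-69, his-70, his-71, his-72 and his-74), htz-1 for H2A.Z, hcp-3 for CENP-A, and the short histone-fold reading frames his-39 and his-73. The name does not mean that all lie alone. The start of his-39 is within 5000 bp of that of his-5, and his-69 and his-70 start within 5000 bp of each other.

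Chromatin immunoprecipitation followed by sequencing (ChIP-seq) had been carried out with an anti-GFP antibody on sonicated chromatin of whole worms. The strain was RW12335, in which genome editing placed TY1, EGFP and 3xFLAG tags at bed-2 (allele st12335 on chromosome III), so that the fusion protein is made from the gene's own locus. There was 1 group of 2 biological replicates of young adults aged 63 h, grown from starved and thus synchronised L1 larvae. The input control named by the submitters was not analysed here, and with no second genotype or stage there was no contrast between conditions.

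Core histones wrap DNA into nucleosomes, and linker histones bind the DNA between them. In animals, genes for core histones are usually present in many near-identical copies and are expressed mainly when DNA is replicated. Variants such as H3.3, H2A.Z and the centromeric CENP-A are mostly single genes, and are also incorporated outside replication. BED-2 belongs to the proteins with a BED-type zinc finger, a fold that binds DNA. In whole adult worms, signal from germ line and somatic nuclei cannot be told apart.

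The sequences at issue are shown first, since copied sequence bears on what could be measured at these genes. The first pair reach 50 bp to each side of the summits of the peaks at hil-4 (V:4754229-4754329) and his-37 (V:9546968-9547068), both of which reached the authors' conservative list. The next pair are stretches of that length from the middle of the intervals between divergently transcribed H2A and H2B genes: his-8/his-7 (V:8533182-8533282) and his-51/his-52 (V:8850268-8850368). A ranked summit lay in the full his-8/his-7 interval, outside the stretch printed, and none lay in that of his-51/his-52. The last pair are the middles of his-12/his-11 (II:13821645-13821745) and his-14/his-13 (II:13820024-13820124), with no ranked summit. The his-8/his-7 middle is printed from the minus strand and the others from the plus strand, 5′ to 3′, from the RefSeq genome. Capitals mark the word TGTCCC or its reverse complement.
hil-4: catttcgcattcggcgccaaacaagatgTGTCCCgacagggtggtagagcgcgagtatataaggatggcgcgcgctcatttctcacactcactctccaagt
his-37: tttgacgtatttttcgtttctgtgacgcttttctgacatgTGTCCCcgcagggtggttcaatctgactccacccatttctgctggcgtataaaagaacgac
his-8/his-7: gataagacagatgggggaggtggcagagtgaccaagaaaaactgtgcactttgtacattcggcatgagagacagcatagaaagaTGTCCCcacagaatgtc
his-51/his-52: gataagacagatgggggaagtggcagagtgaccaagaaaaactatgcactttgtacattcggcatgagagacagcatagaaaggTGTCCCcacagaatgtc
his-12/his-11: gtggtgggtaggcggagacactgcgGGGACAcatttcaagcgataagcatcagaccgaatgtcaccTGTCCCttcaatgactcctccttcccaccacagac
his-14/his-13: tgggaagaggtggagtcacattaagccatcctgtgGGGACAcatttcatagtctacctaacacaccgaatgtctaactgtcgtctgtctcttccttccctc

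BED-2 peaks of the conservative list were found at 4 histone genes, each with a signal below that list's median. A ranked summit, which includes weak candidates, was found near 52 of the 82 genes (63.4%). The share was 66.5 percent over all genes and 80.6 percent over protein-coding genes. A peak of the conservative list was near 4 of the 52 members (7.69%). Among all genes with a ranked summit in reach, 2.98 percent were called by that list (928 of 31161), and 3.25 percent among protein-coding genes. The 4 genes are his-37, his-67, his-68 and hil-4, and they rest on 3 places, since his-67 and his-68 share a peak, so the share is given as a description only. The authors' optimal list held a peak near 1 member, hil-4, beside 3.05 percent of all genes and 3.27 percent of protein-coding genes. The thresholded list of replicate 1 held none (1.18 and 1.45 percent) and that of replicate 2 held his-67 and his-68 (1.31 and 1.42 percent).

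The strongest member was his-37, an H4 gene. Its peak (V:9546858-9547177) had a signal of 70.8 in the series list, and the strongest peaks in reach in the replicates' own lists had 32.5 in replicate 1 and 43.2 in replicate 2. At 87 bp upstream of the his-37 start, the summit lay outside any coding gene. The peak was placed 499 by signal among the 615 peaks of the conservative list, whose median signal was 85.3. Signal values are those of the authors' peak caller and serve here only to describe and rank. They are not on 1 scale between the series lists and the replicate lists.

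Next was hil-4, a linker histone gene. The peak at V:4754119-4754438 had a signal of 68.1, against 31.1 and 38.6 in the lists of replicates 1 and 2. The distance from its summit to the start, on the upstream side, was 34 bp. A weaker conservative peak with a signal of 4.19 lay 168 bp inside the start. The window of the main peak has 1 other copy in the genome by the criterion of at least 50 aligned bases at 80% identity, and the part of this copy in the signal was not tested.

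Both replicates also showed a peak between his-67, an H4 gene, and his-68, an H2A gene, which are transcribed away from each other across 368 bp. The peak (I:9988821-9989140) had a signal of 65.3, with 37.4 in replicate 1 and 34.6 in replicate 2. Its summit lay 151 bp upstream of his-68 and 218 bp upstream of his-67. The start of alg-5, which encodes an Argonaute protein, lay 821 bp away. All 36-base words of this interval occur once in the genome. Each of the 3 main peaks ranked in the lower part of the conservative list (499, 522 and 538 of 615).

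The lowest score in the conservative list was 830, at a −log10 of the global irreproducible discovery rate (IDR) of 2.00. A score of 830 or more does not by itself define the list, since 21 other ranked peaks reached it and were not in the list. Closest to that lowest value among the called members were hil-4 at 2.07 and his-67 and his-68 at 2.14. The uncalled members nearest to it were htz-1 at 1.64, his-61 and his-62 at 1.59, and his-42 at 1.51. The signal at htz-1 was 64.2, with 25.8 and 35.8 in replicates 1 and 2, but its summit lay only 108 bp from the start of wapl-1 and 368 bp from that of htz-1. At his-61 and his-62 the shared peak had 45.3, with 25.4 and 35.1 in the replicates, and its summit lay 297 bp inside his-61. The H3 gene his-42 had 49.1, with 28.7 and 29.4, and its summit lay 54 bp from the start of F08G2.15. By the copy criterion used for hil-4, the window of his-61 and his-62 has 16 other copies, that of his-42 has 21 and that of htz-1 has 0.

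**Figure D1:**
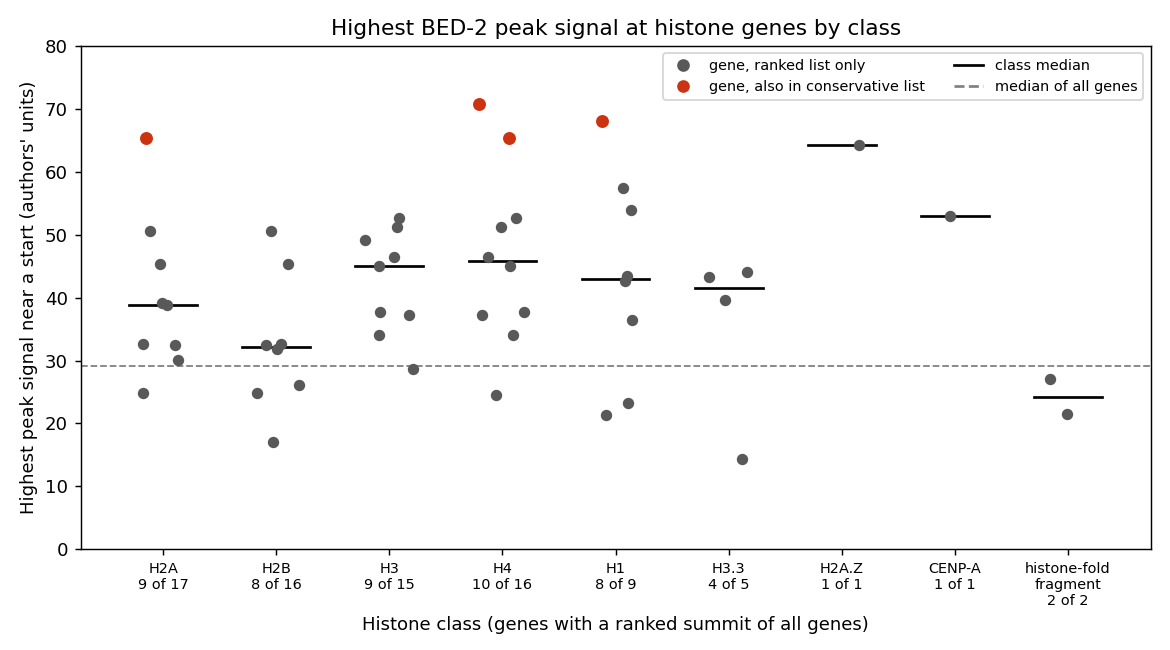
Highest peak signal near a transcript start in the authors' units for each histone gene with a ranked summit, by class, with class medians and the median of all genes dashed. The 4 genes with a conservative peak lie between 65.3 and 70.8; genes that share a peak have the same value, and genes with no ranked summit are not drawn but are counted on the axis.

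Members with a ranked summit had a median highest signal of 39.4, against 29.1 for all genes and 29.8 for protein-coding genes. For 41 of the 52 the value was above the median of all genes, and for 14 it was in the top 10%. These 52 genes rest on 39 distinct peaks, and 17 of them had a summit nearer to the start of a gene that is not a histone gene. Of the 39 summits, 17 lay inside a histone gene, 3 between divergent histone starts, 5 inside another gene and 14 outside coding genes. The median distance from summit to start was 404.5 bp, against 451 bp for all genes.

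By class, the core medians were 38.8 for H2A, 32.1 for H2B, 45.0 for H3 and 45.7 for H4. The range over core genes was 17.0 at his-48 to 70.8 at his-37. Since the paired genes of a locus often share their strongest peak, these classes are not independent of each other. The highest values among core genes that were not called were 52.7 at his-31 and his-32, 51.2 at his-2 and his-1, and 50.6 at his-4 and his-3. By the same copy criterion these 3 windows have 15, 5 and 16 other copies. At his-31 and his-32 the strongest peaks in reach had 16.9 in replicate 1 and 36.4 in replicate 2. The value of 16.9 in replicate 1 was also found at his-33, where replicate 2 had no summit in reach. The replicate values at his-31 and his-32 thus need not belong to the same peak. At his-2 and his-1 the replicates were close, with 25.1 and 27.8. At his-4 replicate 1 had 18.6 and replicate 2 had 39.8. The pair his-55 and his-56 had 45.0 in the series list and 31.9 in replicate 1, with no ranked summit in replicate 2.

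The linker genes differed widely among themselves, as the core genes did. Besides hil-4, hil-6 had 57.4, with 39.1 in replicate 2 and no ranked summit in replicate 1. The gene his-24, a linker histone gene known in worms for a role in germ line silencing, had 53.9, with 21.3 and 33.5 in replicates 1 and 2; its summit lay 35 bp inside the gene and 19 bp from the start of M163.19. At hil-3 the series value was 43.4, with 30.6 in replicate 1 and 13.2 in replicate 2. The series values were 42.6 at hil-7, 36.4 at hil-5, 23.2 at hil-2 and 21.4 at hil-1, and hil-8 had no ranked summit.

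Among the variants, hcp-3, which marks centromeric chromatin, had 53.0 in the series list, 20.9 in replicate 1 and 33.3 in replicate 2. That peak was 672 bp upstream of hcp-3. The H3.3 genes had 44.0 at his-72, 43.3 at his-74, 39.6 at his-70 and 14.3 at his-71, and his-69 had no ranked summit. The his-72 summit lay 38 bp from the start of Y49E10.36 and 342 bp from one of his-72. That of his-70 lay 934 bp upstream and nearer to E03A3.5 (462 bp). By the copy criterion used for hil-4, the his-70 window has 228 other copies, and those of his-74 and his-71 have 18 each. The signal at his-71 was the lowest of any member with a summit, although the strongest peaks in reach in the replicates' own lists had 20.2 and 17.8. At his-72 the replicates had 24.8 and 27.8, and at his-74 they had 18.4 and 31.7. The short reading frames his-73 and his-39 had 27.0 and 21.5, and both summits lay nearer to another gene.

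Clustered and single genes differed in how often a ranked summit was found. Ranked summits were in reach of 36 of 64 clustered core genes (56.2%) and 16 of 18 single genes (88.9%), beside 66.5 percent of all genes and 80.6 percent of protein-coding genes. The 36 core genes shared 23 peaks, and the 16 single genes had 16. Conservative peaks were near 3 core genes and 1 single gene. The median signal was 38.2 for the 36 core genes and 43.0 for the 16 single genes. In replicate 1 the medians were 21.3 and 20.2, and in replicate 2 they were 27.1 and 28.3. The order of the groups thus differed between replicates. In the series list the order also turned when only genes with mostly unique sequence were kept, with medians of 45.3 and 43.0.

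Core genes in the most copied sequence had no ranked summit. A word of 36 bases was called unique when it occurs once in the genome, on either strand, and the share of unique words was taken within 1000 bp of each gene start. The median share was 25.2% for clustered core genes and 99.7% for single genes. Of the clustered core genes, all 18 with a share under 10% lacked a ranked summit. In the bin from 10% to 50%, 13 of 23 core genes had one. Above 50%, all 23 did, and their median signal was 45.3. These 23 genes rest on 13 distinct peaks. Over the whole genome, a ranked summit was also rare under 10%, at 10.6% of 386 genes. In the bins from 10% to 50%, 50% to 90% and above, the shares were 65.0%, 66.4% and 67.0%. Genes of the whole genome thus showed the low share under 10%, but not the rise above 50% seen at core genes. Also at genes with a summit, the strongest window had a further near copy for 34 of 52 members (26 core and 8 single genes), so their values are uncertain. Reads from exact copies cannot be assigned to 1 copy. How the authors handled such reads is not stated, and binding and copied sequence cannot be told apart at these genes.

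**Figure D2:**
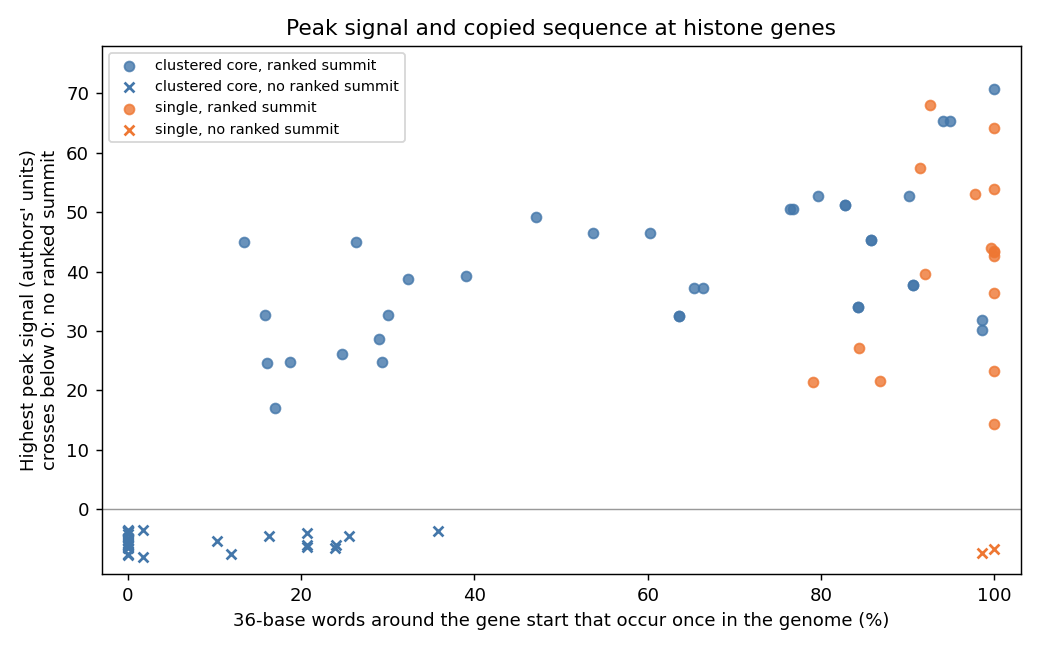
Highest peak signal in the authors' units against the share of 36-base words around the gene start that occur once in the genome, for clustered core and single histone genes. Crosses below 0 are genes with no ranked summit; all core genes above 50% have one, and the 18 core genes under 10% have none.

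The loci show where the gaps lie. The largest array, his-16 to his-42 on chromosome II, holds 13 genes in 10938 bp with 2 ranked summits inside, or 0.183 per kb against 0.821 per kb for the genome. Only 3 of its genes were in reach of a ranked summit, and they lie at its ends. On chromosome V, the arrays his-50 to his-53 (6 genes) and his-28 to his-18 (8 genes) had no ranked summit inside, and none of their 14 genes was in reach of one. The first array and the matching genes of the second, his-28 to his-19, are identical at 6661 of 6661 bases. This exact repeat extends over 15287 bp, V:8840017-8855303 and V:8882112-8897398, and neither copy held a ranked summit of the series list. In replicate 2's own list, 1 summit lay in the second copy, outside the span of its histone genes. The same list held a summit between his-17 and his-18, past the repeat, with a signal of 34.7 that had no partner in replicate 1 or the series list. At the other end, his-8 to his-5 had 2.13 per kb, his-61 to his-59 had 2.12 and his-38 to his-40 had 2.09.

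**Figure D3:**
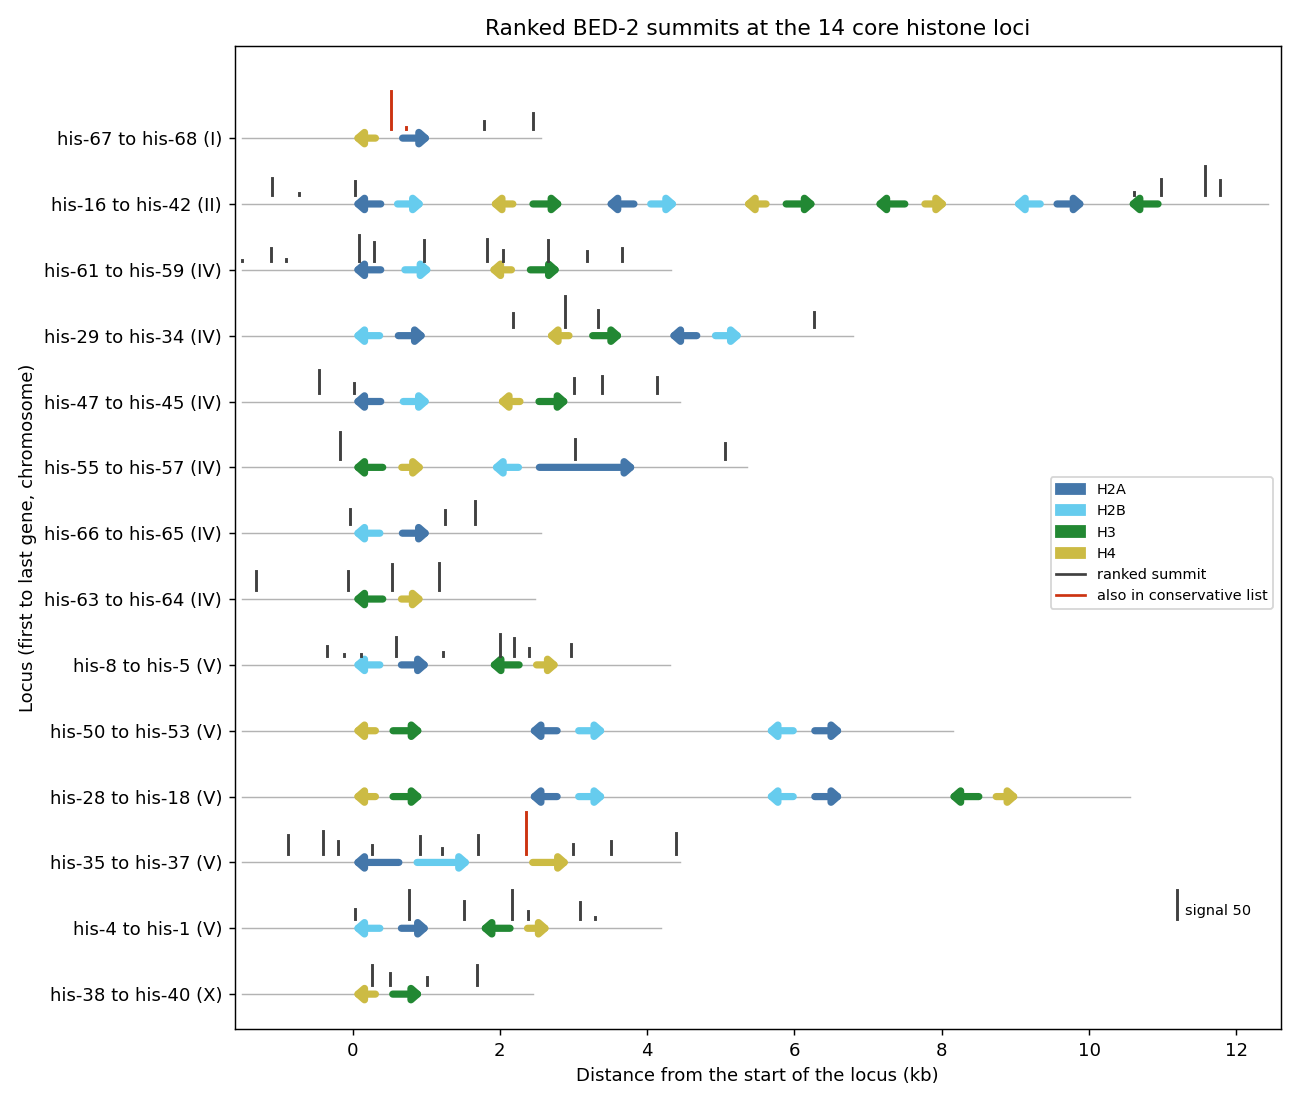
Map of the 14 core histone loci, in kb from the first gene, with genes as arrows coloured by class and ranked summits as ticks whose height is the signal in the authors' units (scale tick 50); red ticks are also in the conservative list. Summits are absent within the repeated arrays on chromosome V and the interior of the array on chromosome II.

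Divergent intervals were set beside their copies in the same way. There were 31 pairs of divergent core genes, 16 of H2A with H2B, 14 of H3 with H4 and 1 of H2A with H4, at a median spacing of 258 bp (227 to 368). They comprised only 21 different sequences. Of the 16 intervals with an identical copy, 0 held a ranked summit, and of the 15 without one, 6 did. Some of the 15 are near copies of another interval. With at least 50% unique words, 6 of 11 intervals held a summit, and below that 0 of 20 did. The genome held 0.821 ranked summits per kb, and no share over other divergent intervals was computed. The interval between his-8 and his-7 is 95.5% identical to that of his-54 and his-53, whose sequence is shared with the his-51/his-52 interval printed above and stands in the genome 4 times. The his-8/his-7 interval held a summit with a signal of 32.5, and the 4 identical intervals held none. Within 1000 bp of its starts the replicate lists reached 21.3 and 20.8, the latter at a summit outside the interval. The 5 other intervals with a summit were those of his-67/his-68, his-2/his-1 (51.2), his-63/his-64 (45.5), his-38/his-40 (21.9) and his-6/his-5 (14.1). Neither replicate's own list held a summit between his-6 and his-5, and only that of replicate 2 held 1 between his-38 and his-40.

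Replicates were compared at the 43 members with a summit in both replicates' own lists. The highest peak in reach was taken from each list, and the peaks compared need not be the same one. The ratio of replicate 2 to replicate 1 had a median of 1.20, from 0.432 at hil-3 to 2.25 at hil-7, and replicate 2 was higher at 33 genes. Over all genes with a summit in both lists the median ratio was 1.16, and replicate 2 was higher at 12247 of 19320. Among core genes the highest ratios were 2.16 at his-31 and his-32, 2.14 at his-4 and 1.96 at his-47, and the lowest were 0.927 at his-67 and his-68, 0.963 at his-6 and his-5 and 0.977 at his-8 and his-7. A further 8 members had a summit in replicate 2 alone and 6 in replicate 1 alone, and 25 had none in either.

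**Figure D4:**
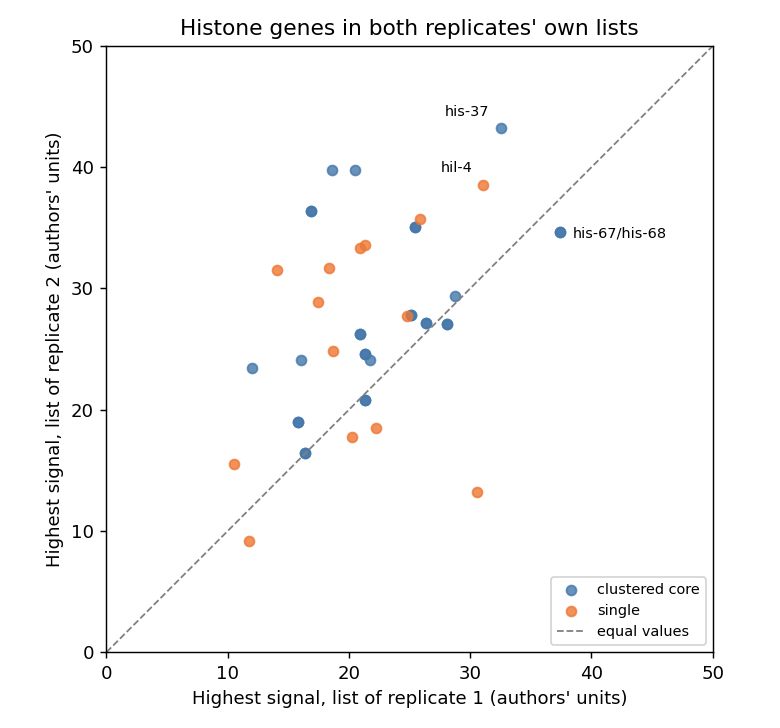
Highest signal of histone genes in the ranked list of replicate 1 against that of replicate 2, in the authors' units, with equal values dashed. Most points lie above the line, and genes that share a peak coincide; the called genes are named.

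Short sequence words were counted in the 300 bp around each start (250 bp before to 50 bp after) on both strands. Core promoters are not independent here, since divergent genes share an interval and many intervals are copies. The word TATAAA, the core of a common promoter element, was in 44 of 64 core promoters (68.8%) against 37.9% of protein-coding genes. Of the 21 different divergent intervals, 16 held it. CCAAT was in 32 (50%) against 45.5%. GTACAC was in 9 of 15 H3 and 9 of 16 H4 promoters, in no H2A, H2B or single promoter, and in 7.39% of protein-coding genes. These H3 and H4 promoters are the sides of the same 9 of 14 divergent intervals, or 8 of 11 different sequences. GTACAC was not in the promoters of the 4 called genes. ACGCGC was in 2 core promoters (3.12%) against 5.92%. Around all 615 conservative summits GTACAC was in 10.1% of windows and ACGCGC in 13.7%, against 2.86% and 1.91% of ranked summits. How GTACAC and ACGCGC were chosen is not recorded, so these shares are a description only.

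The words TGTCCC and TGTGTCCC were read off sequences of the members after seeing them, such as the windows of hil-4 and his-37 printed above. Their shares among members are therefore only a description of the sequences that gave the words. TGTCCC was in 51 of 64 core promoters (79.7%) and 7 of 18 single promoters, against 5.65% of protein-coding genes. The longer TGTGTCCC, which contains TGTCCC, was in 41 core promoters (64.1%) and 5 of 9 linker promoters, against 0.621%. Many of these promoters are copies, and of the 21 different divergent intervals 15 held TGTCCC and 13 TGTGTCCC. The word began 22 bp before the summit at hil-4 and 10 bp before it at his-37. It lay within 50 bp of 4 of the 39 strongest member summits, namely those of his-37, hil-4, his-67 with his-68, and his-42. Over all conservative summits it was in 3.74% of windows, and over all ranked summits in 2.56%. A match to a word is not a measured site.

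Genes linked to histone supply, loading or chromatin assembly were listed for comparison, with earlier results of these data known. All 19 listed genes had a ranked summit, beside 66.5 percent of all genes and 80.6 percent of protein-coding genes. Of the 19, 4 were called, beside 2.98 percent of all genes with a ranked summit in reach and 3.25 percent of such protein-coding genes. The strongest was unc-85, which encodes an ASF1 histone chaperone, with a signal of 174.7 (94.5 in replicate 1 and 83.2 in replicate 2) and a summit 278 bp upstream. The histone chaperone gene nasp-2 had 127.4 (75.5 and 52.1). The gene chaf-2, for a subunit of chromatin assembly factor CAF-1, had 119.6 (64.9 and 53.1). The gene lin-53, for an RbAp48-type histone-binding protein, had 68.3 (36.7 and 32.9). Each summit lay nearest to the gene's own start. Signals at unc-85, nasp-2 and chaf-2 exceeded that of every histone gene, in both replicates. The other 15 had signals of 18.1 to 41.8, among them cdl-1, for the protein that binds the stem-loop of histone mRNA, at 28.2.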

How the data were processed

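The data were 8 peak lists on assembly ce11, 4 from the series and 4 from single replicates. Members and lists were chosen with earlier results of these data known. Per the text deposited beside the samples, the lists derive from alignments of the replicates and a control; the sources used here name no aligner, peak caller or treatment of reads with several matches. Each deposited peak carries a score scaled from the global IDR, a signal value from the authors' peak caller, and a summit offset; ranked lists also hold the deposited −log10 of the global IDR. Files hold no read counts, so depth is unknown and no interval is given. In the series lists, 16 columns of per-replicate values were not tied to samples and not used.

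Genes came from Ensembl release 115 and sequence from RefSeq, on the same assembly. All 82 members were matched to RefSeq by gene ID, because Ensembl gives only 60 different symbols. The start of 60 of the 64 core genes is the coding start. Promoter tables were not used; promoters were cut from the genome at gene starts. Text names called genes, the highest and lowest members, every single gene, the ends of the replicate ratio and called supply genes. No test was run, since there is 1 group. Unique words were counted for lengths of 36, 50 and 100 bases, and copies of summit windows were sought with blastn 2.17.0. Summit assignment and word counting were tested on simulated data. Calculations used Python 3.11.15, numpy 2.4.6 and pandas 2.3.3, and plots matplotlib 3.10.9.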

Additional observations from a re-analysis of the deposited data

How the results depend on the processing

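The count of 52 members with a ranked summit stayed within 1.5 times under the alternatives run, except that 18 remained when only genes whose strongest summit window has no other copy were kept. That restriction removes 34 genes by construction. The count of 4 called members was 1 with the authors' optimal list, and from 0 to 2 when one replicate's lists were left out; the cause was not tested. With summits up to 2000 bp it was 6, and with the nearest start only it was 3. The median signal of clustered core genes, 38.2, was 45.7 without copied summit windows and 45.3 for genes with at least 50% unique words, an alternative chosen after seeing the data. It was 21.3 to 27.1 without one replicate, which uses lists of another scale. The median of single genes, 43.0, was 33.5 with the nearest start only and 20.2 to 28.3 without one replicate. Using gene starts only, or either other cluster distance, left both medians as they were and is no check of their order. In the other 9 alternatives the single genes' median was the higher in 5 and the lower in 4: without replicate 2, nearest start only, without copied windows, and genes with 50% unique words. No paired analysis was possible because there is 1 group and the results come from no test.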
